A study of Mus musculus with 2 samples.

Results

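Chromosome 8 of mouse embryonic stem (ES) cells was followed in consecutive windows of 250 kb, counted from the first base, in ChIP-seq libraries for 2 partners of PRC2. It gave 529 windows out of 9860 on all autosomes. The windows were set by position, but the chromosome was selected on the read levels of these same libraries, which are also the values reported here. Its height above the other autosomes is therefore given as a description, with no test. Of the 529 windows, 503 held reads in at least 50 of their 250 bins of 1 kb and were used, 1 held fewer and 25 held no read. On the other autosomes 9089 of 9331 windows were used.

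The series held 1 library for MTF2 (8946204 distinct reads) and 1 for JARID2 (12900993 distinct reads), without replicates; neither sample was labelled as an input or a control antibody. Chromosome 8 took 600990 and 961381 of these reads. Both were made from ES cells labelled as strain 129SvJae x C57BL/6, at passages 10 to 15, after 2 to 3 passages without feeder cells. The labels name no genotype change or treatment, and do not say whether both libraries came from 1 culture. Depth limits a single bin, with a median of 3 reads per bin on the other autosomes in each library. A window pools up to 250 bins. All intervals cover counting error, or the uncertainty of a median over windows, within 1 library. The interval of a median treats windows as independent. Neighbouring windows are not, so it may be too narrow.

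PRC2 is the Polycomb complex that methylates histone H3 and keeps developmental genes silent in ES cells. MTF2 and JARID2 are accessory proteins that help to bring it to CpG-rich promoters. In a ChIP library most reads still come from DNA that was carried along without being bound, so over long windows the read level follows how much of that DNA the cells held, as well as how readily it is recovered, amplified and aligned. Gain of a whole chromosome 8 is a well-known recurring change of mouse ES cells in culture. No karyotype or input was at hand here, so copy number was not tested.

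Chromosome 8 stood above the other autosomes in both libraries. The level of a window is the median read count of its bins, divided by the median of that value over the windows of the other autosomes. The median level of the chromosome 8 windows was 1.33 in MTF2 (95% order-statistic interval 1.33 to 1.67, n = 503 windows) and 1.67 in JARID2 (1.33 to 1.67). Because the reference is 3 reads in each library, the level moves in steps of 0.333 for each read. In MTF2, 198 windows had a median of 4 reads, 217 had 5 and 53 had 3. In JARID2 the medians were spread more widely, with 138 windows at 3 reads, 72 at 4, 84 at 5 and 79 at 6. Most chromosome 8 windows thus held 1 or 2 reads per bin more than the typical window elsewhere in MTF2.

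A finer value, the mean level, uses the mean of the bins up to the 99th percentile of all autosomal bins. Its median on chromosome 8 was 1.34 in MTF2 (1.32 to 1.35) and 1.36 in JARID2 (1.29 to 1.47). On the 18 other autosomes the MTF2 median ran from 0.930 on chromosome 11 to 1.05 on chromosome 3. The JARID2 median ran from 0.851 on chromosome 3 to 1.25 on chromosome 11. Chromosome 8 was above each of them in both libraries, by a wide margin in MTF2 and a narrower one in JARID2. Chromosomes 3 and 11, the next highest in one library each, were the lowest in the other.

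**Figure D1:**
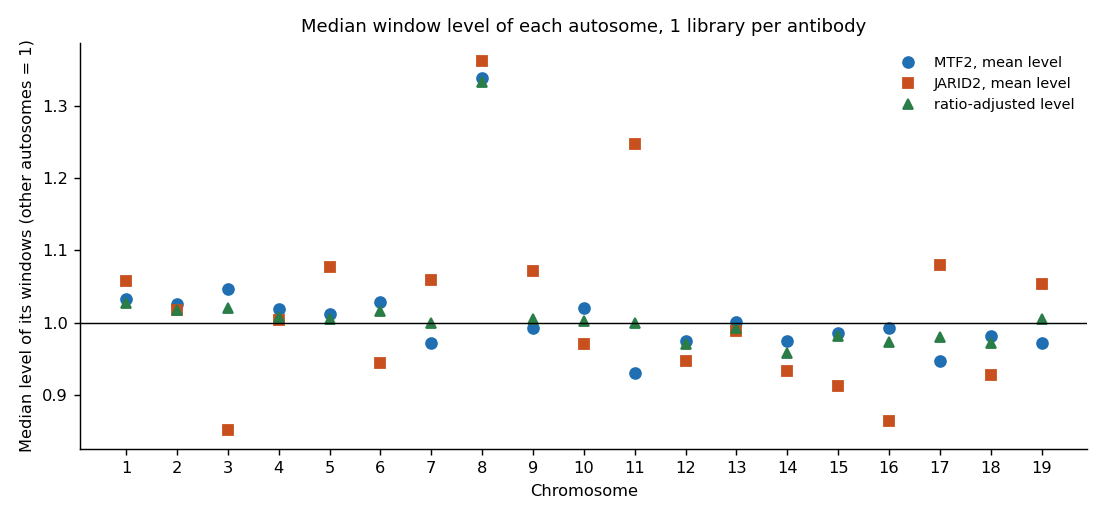
Median level of the 250 kb windows (vertical axis, other autosomes = 1) of each autosome (horizontal axis) for the MTF2 mean level (circles), the JARID2 mean level (squares) and the ratio-adjusted level of both (triangles, explained further on). Chromosome 8 is the highest in all 3, at 1.34, 1.36 and 1.33, while chromosome 11 is high in JARID2 alone.

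A level of 1.2 was taken as raised. In MTF2 441 of the 503 windows reached it (87.7%), against 25.1% of windows on the other autosomes. In JARID2 343 windows reached it (68.2%), against 44.2% elsewhere. Both libraries reached it in 281 windows (55.9%), against 5.06%. On the finer mean level the chromosome 8 shares were 77.1% in MTF2, against 3.83% elsewhere, and 59.2% in JARID2, against 33.8%. The JARID2 share was thus much closer to its background than the MTF2 share. Neighbouring windows are not independent, so these shares carry no interval.

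No chromosome 8 window was below 1.2 in both libraries, whereas 35.8% of windows on the other autosomes were. All 62 windows below 1.2 in MTF2 reached it in JARID2, and all 160 below it in JARID2 reached it in MTF2. The 62 windows low in MTF2 had a median mean level of 1.01 there and of 2.44 in JARID2. The 160 windows low in JARID2 had 0.856 there and 1.41 in MTF2. A dip in one library therefore came with a raised level in the other.

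The other autosomes, pooled, showed the same opposition. Across the 503 chromosome 8 windows the mean levels of MTF2 and JARID2 had a Spearman's rho of -0.646 and a Pearson's r of the log2 values of -0.630. Across the 9089 windows of the other autosomes these were -0.525 and -0.538. These are correlations across windows, which share a library and lie side by side. Base composition, which such windows also share, was not analysed here. The ratio of JARID2 to MTF2 mean level, which a change common to both libraries leaves untouched, had a median of 1.05 on chromosome 8 (0.95 to 1.11) and 0.978 elsewhere (0.964 to 0.992).

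Windows were therefore compared at equal ratio. In the class with a ratio of 0.6 to 0.8 the median MTF2 mean level was 1.42 in 114 windows of chromosome 8 and 1.06 in 2298 windows elsewhere, 1.34 times as high. In the class of 1 to 1.5 it was 1.31 against 0.971, or 1.35 times. In the class of 2 to 3 it was 1.04 against 0.774, or 1.34 times. Even where JARID2 exceeded MTF2 by 3 times or more, 19 chromosome 8 windows had an MTF2 median of 0.887 against 0.650 in 241 windows elsewhere, or 1.37 times. A chromosome 8 window with an MTF2 level near or below 1 was thus still above other windows of the same ratio. Over all 8 classes the quotient of chromosome 8 to the other autosomes lay between 1.28 and 1.37 in MTF2 and between 1.24 and 1.34 in JARID2. Both lowest quotients came from the class below 0.5, with only 5 windows on chromosome 8 and 47 elsewhere. The libraries are tied within a class by the ratio, so the JARID2 quotient is no second measurement.

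**Figure D2:**
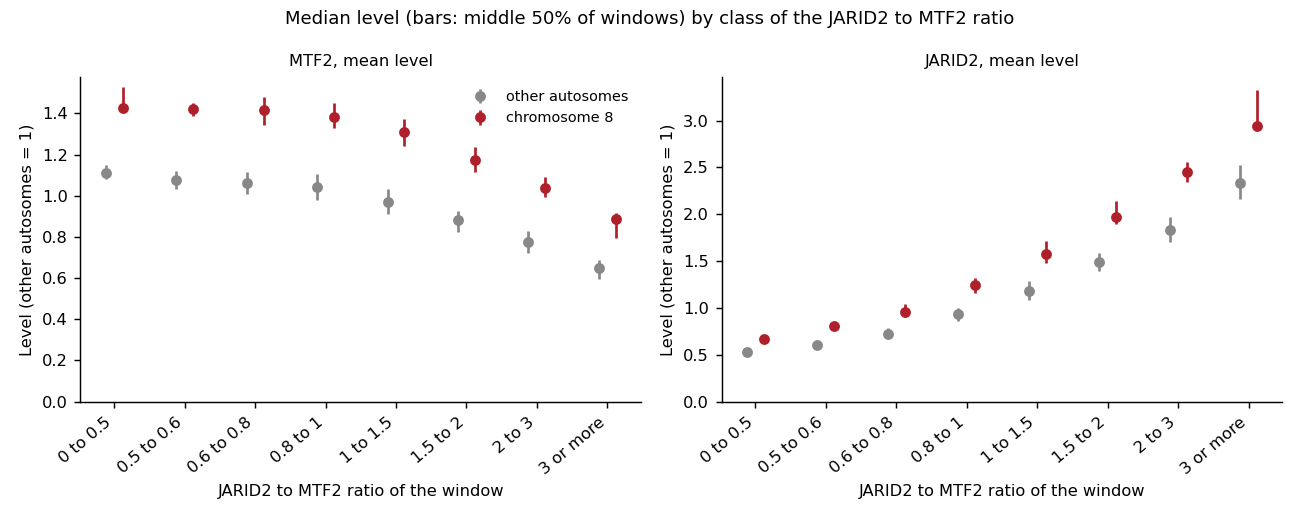
Median mean level (vertical axis, other autosomes = 1) of MTF2 and JARID2 windows by class of the JARID2 to MTF2 ratio (horizontal axis). Red points are chromosome 8, grey points the other autosomes, and bars span the middle 50% of windows. Chromosome 8 is higher in every class, with MTF2 at 1.42 against 1.06 for a ratio of 0.6 to 0.8 and at 0.887 against 0.650 for 3 or more.

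A ratio-adjusted level was formed from this comparison. It is the geometric mean of the MTF2 and JARID2 mean levels of a window over that of the other autosomes' windows nearest to it in ratio. Its median on chromosome 8 was 1.33 (1.32 to 1.34), and its 5th to 95th percentiles were 1.2 to 1.49. On the other autosomes the median was 1 and those percentiles were 0.869 and 1.15. Every one of the 503 windows was above 1, the lowest at 1.09, and 478 reached 1.2 (95%) against 2.29% elsewhere. The highest median of another autosome was 1.03, on chromosome 1. Chromosome 11, so high in JARID2, stood at 0.999, and chromosome 3 at 1.02.

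**Figure D3:**
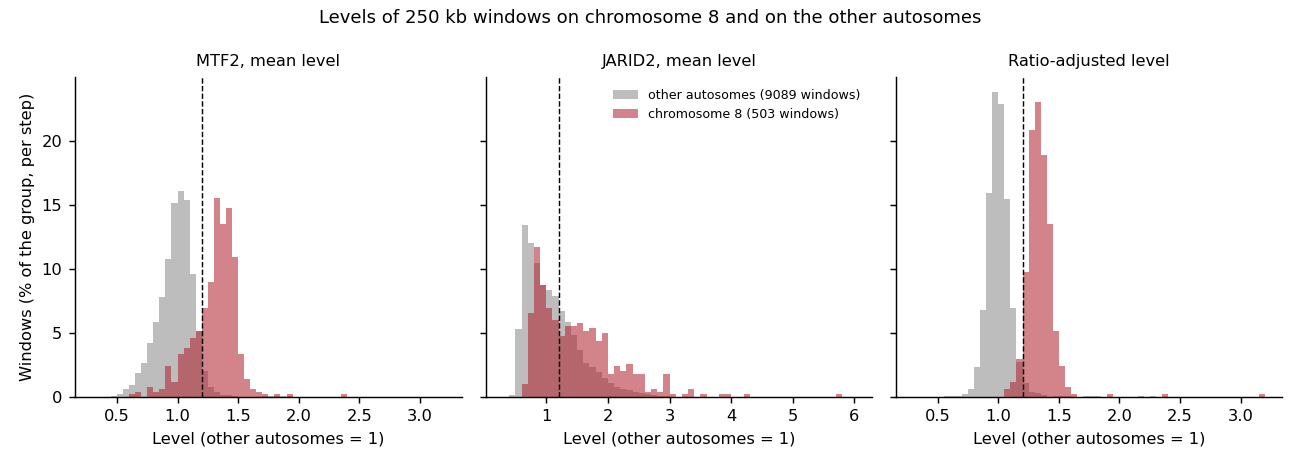
Share of 250 kb windows (vertical axis, % of the group per step) at each level (horizontal axis, other autosomes = 1, wider for JARID2) for the mean level of MTF2 and JARID2 and the ratio-adjusted level. Red is chromosome 8 (503 windows), grey the other autosomes (9089 windows), and the dashed line marks 1.2. The groups overlap widely in JARID2 and little in the ratio-adjusted level, where 95% and 2.29% reach 1.2.

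The raised level began with the first window that held reads and ended with the last. To find its limits, the levels were cut by least squares into pieces of constant level of at least 4 windows. The first window, chr8:3000001-3250000, held 1142 MTF2 and 1114 JARID2 reads. Its mean levels were 1.29 in MTF2 (Poisson 95% interval 1.21 to 1.36) and 1.09 in JARID2 (1.03 to 1.16), and its ratio-adjusted level was 1.22. The last, chr8:132000001-132085059, stood at 1.52 in MTF2 (1.38 to 1.67), 1.04 in JARID2 (0.932 to 1.16) and 1.42 after adjustment, over 86 bins. MTF2 and the ratio-adjusted level were above 1.2 in both end windows. JARID2 was at the level of the other autosomes at the distal end, with mean levels of 0.940 and 1.04 in the last 2 windows. The first 3000000 bases held no read in either library, so nothing is known of them.

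The ratio-adjusted profile had 7 pieces, of which 6 were at 1.2 or higher. These held 98.0% of the chromosome 8 windows, against 0.759% of windows inside raised pieces elsewhere. The main piece ran for 93.5 Mb from 22500001 to 116000000, with 368 windows and a level of 1.35. Before it lay pieces at 1.30 from 3000001 to 15000000, at 1.19 from 15000001 to 17500000, at 1.41 to 19500000 and at 2.04 to 20500000. After it came 1.21 to 122250000 and 1.31 to the last read. The longest raised piece on another autosome measured 3.5 Mb, on chromosome 14. The profile was thus near flat, with a short peak near 20 Mb and shallow lows near 16 Mb and from 116000001 to 122250000. The value of 2.04 does not give the peak's full height. Mean levels, from which it is built, leave out bins above 11 reads in MTF2 and above 36 in JARID2. In the window from 20250001 the MTF2 mean level was 2.38, against a level of 12.0 by the median of bins.

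Pieces of a single library were less regular. In MTF2 12 of 14 pieces were raised, with 95.8% of the windows against 6% elsewhere. Those not raised ran from 72750001 to 73750000, at a level of 0.904, and from 121500001 to 125750000, at 0.899. Their median JARID2 levels were 3.67 and 3.33, and their median ratio-adjusted levels were 1.38 and 1.28. In JARID2 18 of 27 pieces were raised, with 58.3% of the windows against 42.9% elsewhere, and the first and last were again at the ends. The JARID2 pieces followed swings present on all autosomes and could not place a limit on their own. MTF2 pieces at 1.2 or higher also occurred elsewhere, for up to 22.75 Mb on chromosome 3, so the limits rest on the ratio-adjusted level.

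**Figure D4:**
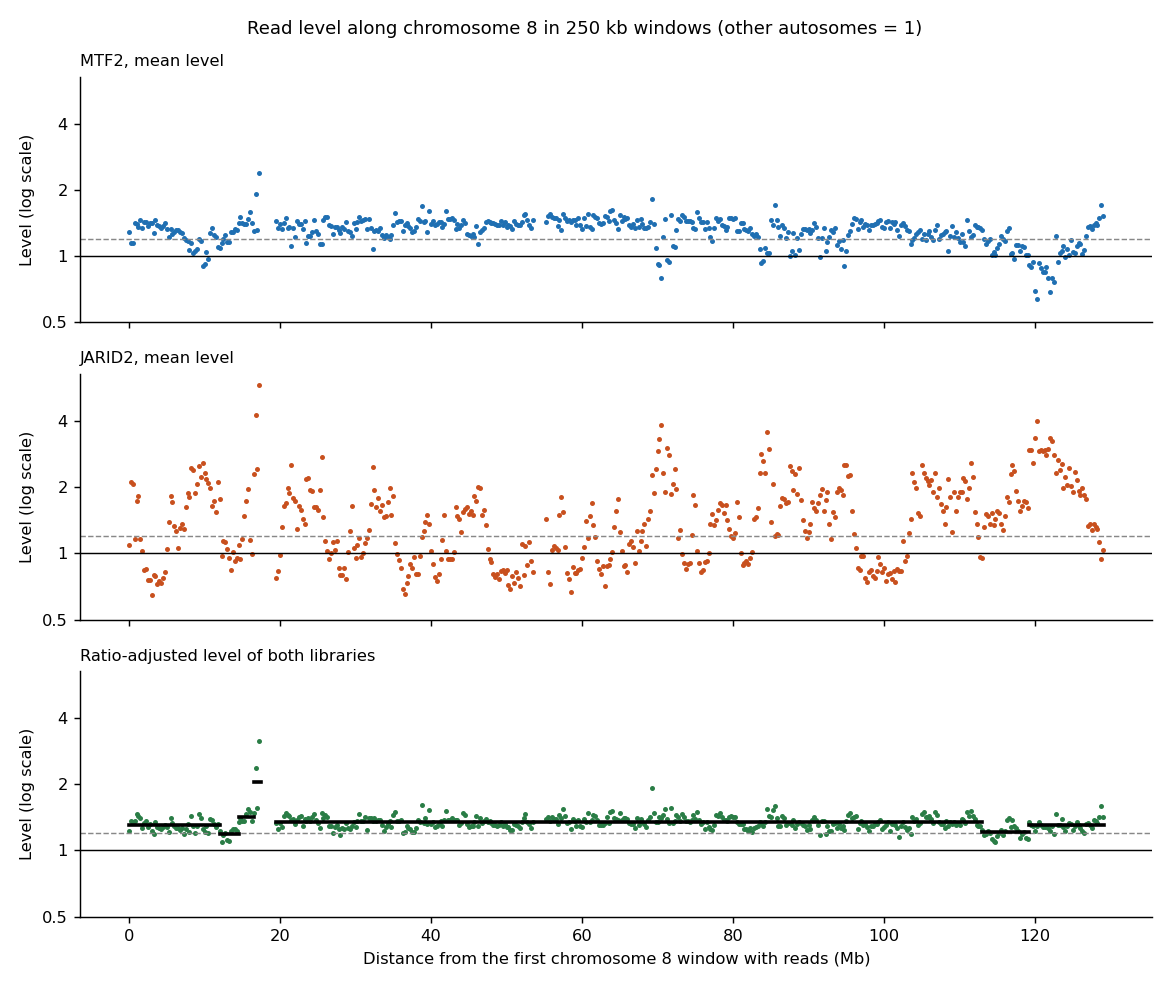
Mean level (vertical axis, log scale, other autosomes = 1) of each 250 kb window along chromosome 8 (horizontal axis, distance in Mb from the first window with reads) for MTF2 and JARID2, with the ratio-adjusted level below. The solid line is 1, the dashed line 1.2, and black bars in the lowest panel are pieces of constant ratio-adjusted level. MTF2 dips at most JARID2 peaks, but both rise in the peak near 17 Mb of this axis. The pieces of the ratio-adjusted level lie between 1.19 and 1.41 apart from that peak, at 2.04, and no window is below 1.09. At the peak the mean levels leave out the highest bins, so its full height is not shown.

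In stretches of 10 Mb the ratio-adjusted median stayed between 1.29 and 1.39, over 14 stretches. The MTF2 median of the same stretches ran from 1.02, from 120000001 on, to 1.46, from 60000001 on. The JARID2 median ran from 0.834, from 50000001 on, to 2.35, from 120000001 on. The stretch lowest in MTF2 was thus the highest in JARID2.

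The distal part beyond 120000000 had the lowest MTF2 levels of the chromosome. Its 49 windows had a median level of 1 in MTF2 (1 to 1.33) and 2.33 in JARID2 (2 to 3). In MTF2 21 of them reached 1.2, against 25.1% of windows on the other autosomes. In JARID2 47 did, against 44.2% elsewhere, and on the ratio-adjusted level 44 did, against 2.29%. The 454 windows before it had a median level of 1.67 in MTF2, and 420 of them reached 1.2. Of the 62 windows low in MTF2, 28 lay beyond 120000000. The ratio-adjusted median there was 1.29 (1.27 to 1.31), against 1.34 before it, so the distal part differed far less from the rest once windows of equal ratio were compared. It was not even, however. From 121000001 to 122000000 the ratio-adjusted median was 1.165, and 1 of 4 windows reached 1.2.

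Within the distal part MTF2 fell to a minimum and rose again before the chromosome ended. The median mean level of MTF2 was 1.08 from 120000001, 0.791 from 123000001, 0.779 from 125000001, 1.05 from 127000001 and 1.36 from 130000001, each over 4 windows. Over the same windows that of JARID2 was 2.14 from 120000001, 3.14 from 123000001, 3.01 from 125000001, 2.13 from 127000001 and 1.35 from 130000001. The lowest MTF2 window of chromosome 8 was chr8:123250001-123500000, with 555 MTF2 reads and a mean level of 0.639 (0.587 to 0.695). JARID2 held 4854 reads there, a mean level of 3.98 (3.84 to 4.11), and the ratio-adjusted level was 1.29. All 9 windows beyond 130000000 were raised in MTF2, with a median level of 1.67 and mean levels of at least 1.32. Their JARID2 mean levels ran from 0.940 to 1.36, and the ratio-adjusted median was 1.37. The window chr8:131750001-132000000 was among the 5 highest in MTF2, at 1.70 (1.61 to 1.79).

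The 5 lowest MTF2 windows were all rich in JARID2. Besides the one above, they began at 123000001 (0.695), 125000001 (0.691), 125500001 (0.763) and 73500001 (0.793). Their JARID2 mean levels were 3.33, 3.33, 2.81 and 3.84, and their ratio-adjusted levels 1.23, 1.23, 1.19 and 1.41. The 5 lowest JARID2 windows, from 0.646 to 0.689, began at 6000001, 39500001, 61500001, 53500001 and 39250001. Their MTF2 mean levels were 1.42, 1.39, 1.42, 1.37 and 1.30. At each of these 10 windows the library that was not used to pick the window was raised.

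Many windows were tied next to the threshold, because the level moves in steps. In MTF2 198 windows were just inside, at 1.33, and 3 just outside, at 1.17. In JARID2 72 windows were at 1.33 and 4 at 1.17. Taking the lowest mean level inside and the highest outside, the MTF2 windows nearest to it began at 87500001 (mean level 1.03) and 118000001 (1.09). The JARID2 windows began at 115750001 (0.960) and 59500001 (1.06). Of the 25 windows whose ratio-adjusted level missed 1.2, 4 lay between 15 and 17 Mb from the chromosome's start and 12 between 116000001 and 123000000. The lowest began at 15250001 (1.09), 117750001 (1.10) and 117500001 (1.10). At these 3 windows the MTF2 mean levels were 1.15, 1.01 and 1.05 and the JARID2 mean levels 0.977, 1.43 and 1.34. They were the shallow lows of an otherwise level profile.

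The interval from 19000000 to 21000000 held the highest windows of the chromosome. Its 6 windows with reads had a median level of 2.00 in MTF2 (1.67 to 12.0) and 2.00 in JARID2 (1 to 10.7), the intervals spanning the lowest and the highest window. That median depended on where the windows fell. With the window grid moved it was 5.92 in MTF2 and 4.67 in JARID2, and in 1 Mb windows it was 5.33 and 3.83. The window from 20250001 reached a level of 12.0 in MTF2, with 7114 reads over 188 bins, and 10.7 in JARID2, with 7700 reads. The window from 19750001 reached 7.33 with 5543 MTF2 reads and 6.00 with 5545 JARID2 reads, over 201 bins. These were the 2 highest windows in each library. The windows from 19000001 and 19250001 were at 2.00 and 1.67 in MTF2 and at 1.33 and 1 in JARID2, far below those peaks.

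In steps of 50 kb the interval broke into separate blocks with sharp edges. The step from 19600001 had a level of 1.33 in MTF2 and 1.67 in JARID2, and that from 19700001 had 8.5 and 7.83. Levels reached 12.7 and 7.67 from 19850001, then dropped to 4 and 3.33 from 19950001. The next step, from 20000001, was at 13 in MTF2 and 5.83 in JARID2, over 30 bins. Between the blocks the steps from 20100001 and 20150001 were at 1.33 in MTF2, and at 1.67 and 2.00 in JARID2. From 20200001 the levels rose again to 10.7 and 7.33, and from 20400001 they were 12.8 and 12.3. A gap of 2000 kb without reads followed, from 20458001 to 22458000. Both libraries were thus high in the blocks and low in the steps from 20100001 and 20150001, though not in equal measure at each step. From 20350001 MTF2 stayed at 12.0 while JARID2 was at 7.83.

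The blocks were also sought by a rule applied to all autosomes, chosen after the data were seen. It asked for steps of 10 kb with at least 2 times the chromosome's own median in both libraries, in runs of at least 5 such steps. In the interval it found 3 blocks. The block from 19680001 to 19930000 had 6.22 times the chromosome 8 level in MTF2 and 5.33 times in JARID2. That from 19950001 to 20030000 had 4.89 and 3.22 times, and that from 20200001 to 20460000 had 8 and 6.89 times. Deposited reads per distinct read were 1.05, 1.06 and 1.05 in MTF2 and 1.11, 1.11 and 1.14 in JARID2, against 1.08 and 1.14 over chromosome 8. The JARID2 value of the chromosome includes the block at 126420001, described further on, which holds more repeats. Part of the blocks held no read, with reads in 201 of 250 and 209 of 260 bins of the longer blocks.

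**Figure D5:**
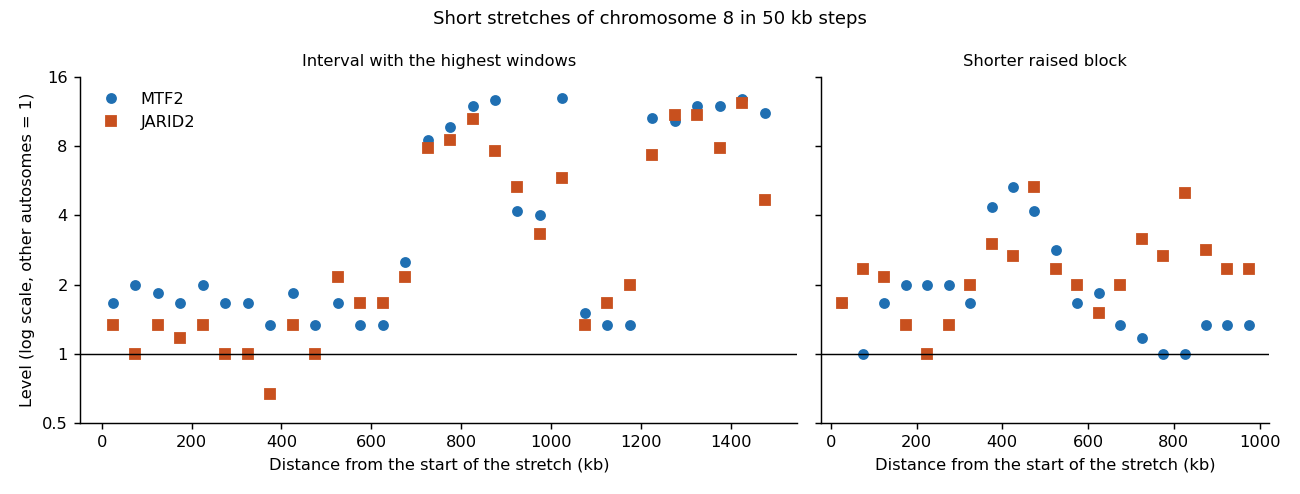
Level (vertical axis, log scale, other autosomes = 1) in 50 kb steps (points) over the interval that starts at 19 Mb (left) and over a stretch that starts at 72 Mb (right), by distance from the start in kb. MTF2 (blue circles) and JARID2 (orange squares) rise together to at most 13 and 12.3 on the left, with steps at 1.33 to 2 between the blocks, and the right block is lower and shorter.

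Chromosome 8 carries 28 protein-coding alpha-defensin genes (Defa) and 24 protein-coding beta-defensin genes (Defb) in RefSeq's table of GRCm38.p6. Both are families of antimicrobial peptides with clustered genes. Whether these genes fall in this interval was not determined, since no coordinate of that assembly fits the files. Leaving the 6 windows out changed little elsewhere. The median level of the other 497 windows was 1.33 in MTF2 and 1.67 in JARID2, and 87.5% and 68.0% of them were raised. Medians and shares over 503 windows could hardly move when 6 were left out. The mean of the window levels, which can move, went from 1.491 to 1.455 in MTF2 and from 1.695 to 1.669 in JARID2. By that mean, the height of chromosome 8 as a whole did not rest on the interval.

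A shorter block lay near 72 Mb. The window from 72250001 held 2830 MTF2 and 2685 JARID2 reads, with levels of 3.00 and 2.33 and a ratio-adjusted level of 1.91. Steps of 50 kb from 72350001, 72400001 and 72450001 were at 4.33, 5.33 and 4.17 in MTF2 and at 3.00, 2.67 and 5.33 in JARID2. The step from 72500001 was at 2.83 and 2.33. The adjoining steps, from 72300001 and 72550001, were both at 1.67 in MTF2 and at 2.00 in JARID2. The next steps out, from 72250001 and 72600001, were at 2.00 and 1.83 in MTF2 and at 1.33 and 1.5 in JARID2. Farther on, from 72700001 and 72800001, JARID2 was at 3.17 and 5 while MTF2 was at 1.17 and 1. The rule for blocks kept 60 kb of it, from 72460001 to 72520000, at 3.67 and 3.89 times the chromosome 8 level. Both libraries were raised over the block, but JARID2 was as high again beyond it, where MTF2 was not.

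The last block by this rule, from 126420001 to 126510000 in the distal part, was of another kind. It held 77628 JARID2 and 1426 MTF2 reads, 195.8 and 3.44 times the chromosome 8 level, with 1.55 deposited JARID2 reads per distinct read. The windows from 126250001 and 126500001 had medians of 12 and 9 JARID2 reads per bin, against 9 and 6 in the adjoining windows. The first thus had a level of 4. Its mean level, which leaves out the highest bins, was 2.38, below the 2.64 of the window before. As a median of bins, the level of both windows stayed far below the height of the block itself. Blocks were not particular to chromosome 8. The other autosomes had 39, on 12 of 18 chromosomes, up to 14 on chromosome 14 and up to 800 kb long. Of all 10 kb steps, 0.472% on chromosome 8 lay in a block, against 0.228% elsewhere.

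Other features of the reads bore on how chromosome 8 was counted. Among chromosome 8 bins with a read in either library, 2.45% held none in MTF2 and 2.95% held none in JARID2. Both shares were lower than on each of the 18 other autosomes (4.12% to 6.81% and 4.04% to 7.14%). Reads on the forward strand were 49.98% and 50.1%. Deposited reads per distinct read, at 1.08 and 1.14, lay within the range of the other autosomes, 1.07 to 2.23 and 1.08 to 1.28. MTF2 reads with a deposited score of 0, whose meaning is not given, were 39.4% of distinct reads against 35.7% to 41.5% elsewhere. MTF2 bins at 5 times or more of their own window's mean (bins up to the 99th percentile) made up 0.311% on chromosome 8, more than on each of the 18 others (0.0624% to 0.222%). Chromosome 8 thus had the lowest share of empty bins and the highest share of high MTF2 bins. More reads per bin leave fewer bins empty, so the first share restates the read level and is no separate trait. That second share includes the interval from 19000000 to 21000000, where the window mean leaves out bins above 11 MTF2 reads. In the 50 kb step from 20000001 the median was 39 MTF2 reads per bin. Whether the share of high MTF2 bins stays the highest without this interval was not tested, so it is not given as a trait of the whole chromosome. Reads were missing over 2 further gaps, 1699 kb from 56623001 to 58322000 and the 3000 kb at the start.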

How the data were processed

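Per the labels' protocols, DNA was recovered with antibodies to MTF2 or JARID2, PCR-amplified (15 cycles) and read on an Illumina Genome Analyzer. The deposited files hold 1 line per aligned read, as start and end positions: 10986401 of 52 bp for MTF2 and 14465269 of 36 bp for JARID2. The deposited score ran from 0 to 10 in MTF2 and was 1000 throughout JARID2. Which aligner, genome build and filters were used is not given in the sources used here. Coordinates are as in the files, counted from 1.

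Repeat reads, alike in chromosome, strand and 5' end, were reduced to 1, leaving 81.4% and 89.2%. Their 5' ends were counted in 1 kb bins, and bins with a read in either library entered windows, with a minimum of 50 bins. Mean levels left out bins above 11 reads in MTF2 and 36 in JARID2. The ratio-adjusted level used the 101 nearest windows of other autosomes. It, the blocks, the ratio classes and the 50 kb steps were added after the data were seen. Pieces were found by dynamic programming, with a penalty of 3 times the natural log of the window number times the noise variance. The scripts were tested on simulated data. The named windows were the 5 highest and lowest levels per library with reads in at least 50% of bins, those at the limits and the threshold (ties by mean level), and those of the interval. Genes were not placed, because no genome or annotation of the files' build was used. The chromosome, its windows, the interval and the distal part were chosen with earlier results of these data known. Python 3.11.15, numpy 2.4.6, pandas 2.3.3 and scipy 1.17.1 were used.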

Additional observations from a re-analysis of the deposited data

How the results depend on the processing

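Over 12 results, 126 values under alternatives were computed. Of these 118 stayed within the interval of the main value (levels), within 1.5 times (shares) or within 1 window (limits), 8 moved and 0 reversed. This tally overstates stability. A reference from single bins repeated all 12 main values. The geometric mean and the ratio-adjusted level each gave 1 value for both libraries, counted once for each. With bins averaged up to the 99th percentile, the MTF2 level of the interval from 19000000 to 21000000 was 1.5 against 2.00, since bins above that limit were left out. With the window grid moved it was 5.92, and in 1 Mb windows 5.33. Both counted as unmoved only because the interval of the main value ran from 1.67 to 12.0. In 1 Mb windows the JARID2 stretch began at 8000001. With the geometric mean of both libraries the level beyond 120000000 was 1.63, above MTF2 and below JARID2 alone. The ratio-adjusted level, added after the data were seen, gave 1.333 for the chromosome, against 1.333 in MTF2 and 1.667 in JARID2, 1.29 beyond 120000000 and 1.53 in the interval. Its value for the chromosome, counted as moved for both libraries, missed the lower bound of 1.333 only beyond the digits printed. Where no construction is named, the cause was not tested. The share of raised MTF2 windows ran from 64.0% with reads of score above 0 to 95% with the ratio-adjusted level. No paired analysis was possible because each antibody had 1 library, and no replicate could be left out. Neither extra copies nor base composition was tested.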
